A study of Mus musculus with 24 samples.

Results

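White adipose tissue (WAT) was compared between 3 mice of 90 weeks and 3 mice of 10 weeks of age. All mice were C57BL/6J males, no treatment or altered allele is named for either age, and the labels do not say which fat depot was taken. These 6 arrays were chosen by their tissue label out of 24 in the series, which also holds liver, lung and kidney of 3 mice at each age. The question of the comparison is which transcripts differ between young and aged tissue. Total RNA was labelled with Cy3 and read on Agilent 1-colour mouse arrays. A level is given as the log2 signal of a gene's brightest probe relative to the 75th percentile of its array, so that 1 unit is a 2-fold difference, and "the change" is the mean at 90 weeks minus the mean at 10 weeks with its standard error (SE). Levels are compared between arrays, never between genes.

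White fat stores triglyceride in adipocytes and releases it as fatty acids, and its adipocytes secrete hormones such as adiponectin and leptin. Between the adipocytes lie progenitor and endothelial cells, a collagen matrix, mesothelium on visceral depots, and a population of immune cells. Macrophages are the best known of these. Those that gather around dying adipocytes take up lipid, digest it in lysosomes and carry a recognisable set of transcripts led by Trem2, Spp1 and Gpnmb. T cells, B cells, plasma cells and mast cells are also resident in fat. In whole tissue, more cells of a type and more RNA per cell cannot be told apart.

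The tissue label fitted its markers, since all 10 white adipocyte markers, among them Adipoq, Plin1 and Pparg, were well above background on every array. Young replicate 1 stood apart. Of 56 epididymal epithelium genes, 54 were well above background on it, against 12 to 30 on the other 5 arrays. Their summed signal was 11.78 on the log2 scale on that array against 1.42 to 2.95 on the others and made up 1.61% of all its signal. Lcn5, a lipocalin secreted by the epididymis, read 8.76 on young replicate 1 and -7.52 to -2.60 elsewhere. The summed signal of 14 testis and sperm genes was 6.99 on it, 3.05 on aged replicate 2 and -0.13 to 1.65 on the other 4. Its correlation with the other young arrays was 0.933 and 0.944, where the other pair reached 0.987 (Pearson's r across genes, a description). The main counts below are therefore also given without young replicate 1.

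Aged replicate 3 stood apart in another way. All 19 neutrophil genes tested were highest there among the aged arrays, as were 37 of 38 interferon-stimulated genes, 33 of 34 oxidative phosphorylation genes and 20 of 25 lipogenesis genes, while 30 of 34 collagen and matrix genes were lowest there. The share of all genes that were highest or lowest on a given aged array was not counted. These counts, and later ones of that kind for aged arrays, therefore have no background beside them. Mpo, the peroxidase of neutrophil granules, read -4.40, -3.99 and 6.30 on the 3 aged arrays. Sfrp5, a secreted Wnt inhibitor of adipocytes, read 5.04, 6.07 and -3.21.

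**Figure D1:**
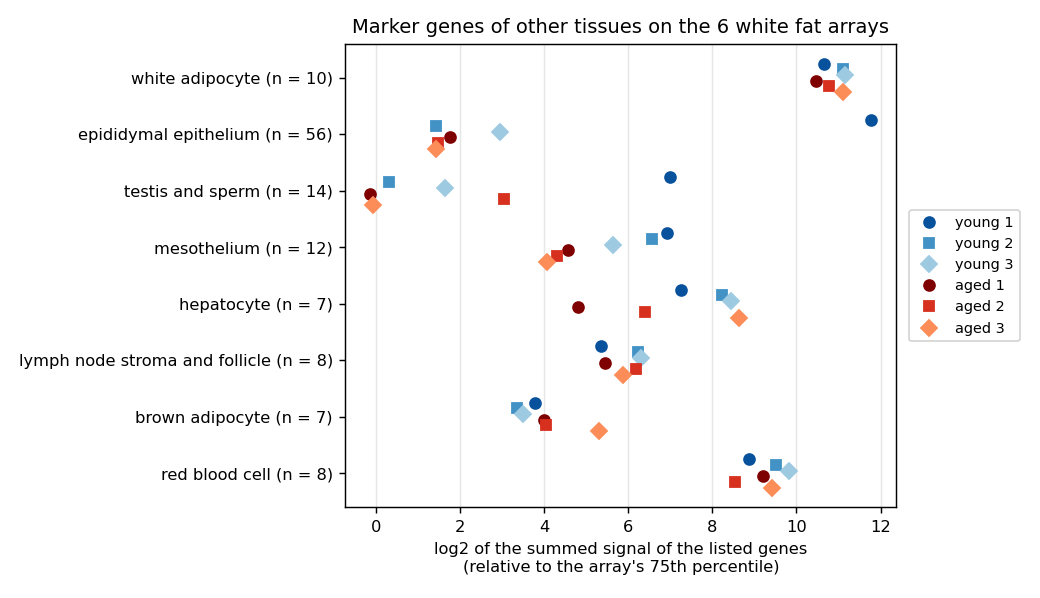
Summed signal of marker gene lists on each of the 6 white fat arrays, as log2 of the sum over the 75th percentile of its array (blue, 10 weeks; red to orange, 90 weeks; n, genes with a probe). Epididymal genes stand at 11.78 on young replicate 1 and at 1.42 to 2.95 on the other arrays, while the adipocyte markers lie within 10.47 to 11.16 on all 6.

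Of 30063 genes and unnamed transcripts tested with limma, 605 were called higher at 90 weeks and 174 lower (Benjamini-Hochberg adjusted p under 0.05), which is 2.01% and 0.579%. Among the 17213 with a mouse gene symbol, 331 (1.92%) were higher and 103 (0.598%) lower. Without young replicate 1 the counts were 478 (1.59%) and 108 (0.359%), of which 398 and 59 were calls of the full comparison. At an unadjusted p under 0.05, 9.86% of all entries were higher and 9.42% lower, and in 13.7% every aged array was above every young array, in 15% below. These shares are the background against which the counts of gene lists are read. Young replicate 1 was the lowest young array in 9416 of the 17213 genes with a symbol, the background for counts of that kind. The median change over all entries was -0.05 with and without young replicate 1.

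**Figure D2:**
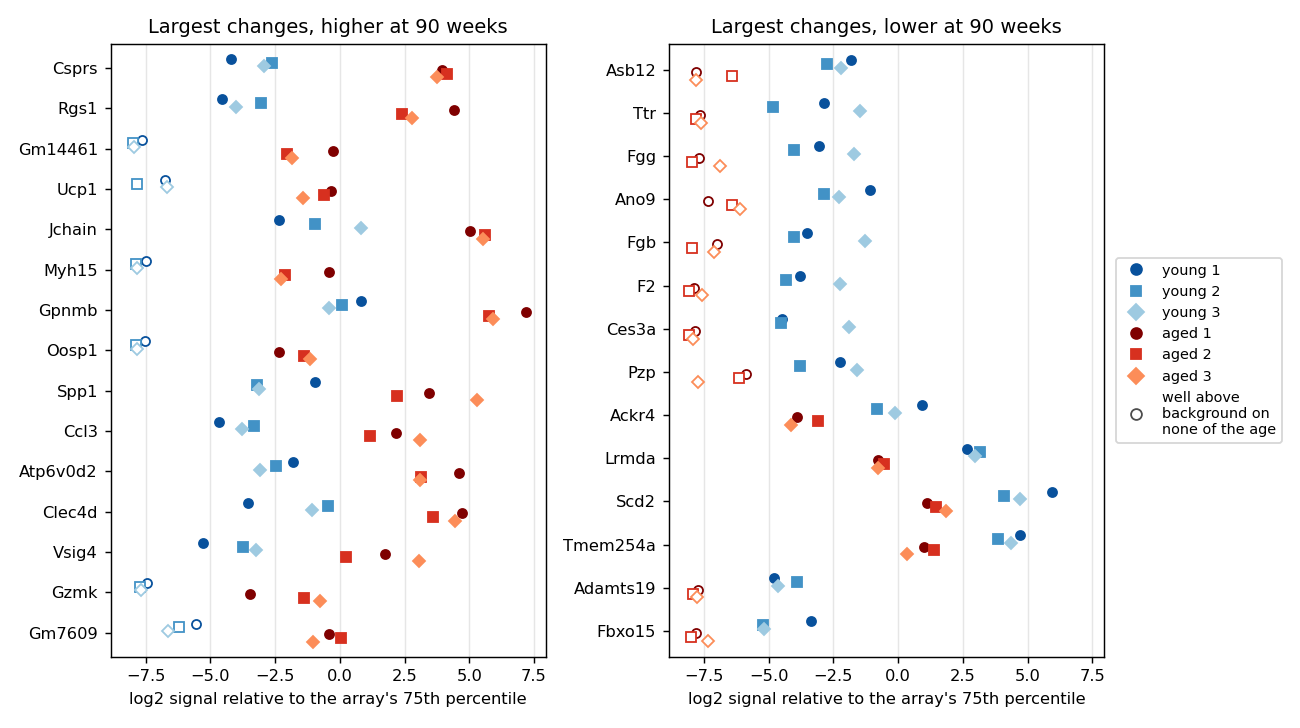
The 15 genes with the largest called increase and 14 of the 15 with the largest called decrease, each array as 1 point (x axis, log2 of the signal over the 75th percentile of its array; open symbols, well above background on none of the 3 arrays of that age). Rows were taken only from called genes whose ages do not overlap and whose brighter age was well above background on all 3 arrays. The separation of the ages is therefore part of the selection. Of these genes, 6 of the higher and 10 of the lower are not well above background on any array of 1 age.

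The largest increases were in genes of immune cells, in a fat-burning gene and in several genes of unknown role in fat. Rgs1, which curbs G protein signalling in lymphocytes and macrophages, read -4.55, -3.07 and -4.01 at 10 weeks and 4.41, 2.42 and 2.80 at 90 weeks, a change of 7.09 (SE 0.62, adjusted p = 0.00699, limma). Csprs was -4.20, -2.63 and -2.93 against 3.94, 4.15 and 3.76. It belongs with Gm7609 to a family of near-identical copies, so the reads of single members are uncertain. Ucp1, the uncoupling protein of thermogenic adipocytes, was not well above background on any young array and read -0.34, -0.62 and -1.43 at 90 weeks, at least 28.4-fold higher (adjusted p = 0.00407, limma). Here and below, such a bound sets the bright group's mean against the lowest signal that counted as above background on the arrays of the dim group. A gene given as a bound passed the filter through its bright group alone. Its p-value rests partly on readings near background, whose spread is not that of a measured level. By the same measure Gm7609 was at least 35.8-fold higher, Gm14461 at least 18.9-fold, the myosin heavy chain Myh15 at least 16.4-fold and Oosp1, named for an oocyte-secreted protein, at least 16-fold. The other leading genes were Gzmk of T cells, Vsig4 of resident macrophages, the plasma cell gene Jchain, the chemokine Ccl3, and Spp1, Gpnmb, Atp6v0d2 and Clec4d, which belong to the list described next.

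Lipid-associated macrophage genes had the highest median change of the 38 lists examined. Of 22 tested, 11 were called higher and none lower, 20 had every aged array above every young array, and the median change was 2.90. Without young replicate 1 the count was 9 and the median 2.41, and with other single arrays left out it was 3 to 6. Trem2, the lipid receptor of these cells, read 0.34, 2.32 and 1.66 at 10 weeks and 7.10, 5.85 and 6.39 at 90 weeks, a change of 5.01 (SE 0.57, adjusted p = 0.0157, limma). All aged arrays lay far above the young arrays. Gpnmb, a lysosomal membrane glycoprotein, read 0.82, 0.07 and -0.41 against 7.19, 5.76 and 5.92. Spp1, the secreted phosphoprotein osteopontin, read -0.96, -3.20 and -3.12 against 3.44, 2.21 and 5.30, a change of 6.08 (SE 0.95, adjusted p = 0.0359, limma), with both ages widely spread. Atp6v0d2, a subunit of the proton pump, changed by 6.06, Clec4d, a C-type lectin receptor, by 5.94, the elastase Mmp12 by 5.43 and Nceh1, a hydrolase of cholesteryl esters, by 3.82. Lipa, the lysosomal acid lipase, rose by 3.05, Ctsk by 3.11 and Ctss by 3.03, both cathepsins, and Lgals3, a galectin, by 2.61. Mmp12 (adjusted p = 0.0771) and Ctsk (0.08) lost the call without young replicate 1 in limma, and both also lost it with any other array left out. Of the 6 fits that left out 1 array, Gpnmb, Atp6v0d2 and Nceh1 were called in all 6. Trem2 and Lipa were called in 3 of them, Spp1, Clec4d and Lgals3 in 2 and Ctss in 1. Itgax, the integrin CD11c, read -1.0, 0.55 and 0.35 against 4.58, 3.52 and 2.29 and missed the threshold (adjusted p = 0.061, limma).

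Several of these genes changed more in fat than in the other tissues. The change in WAT minus the mean change of liver, lung and kidney, in 1 limma fit of all 24 arrays, was called higher for 9.55% and lower for 4.5% of the 25773 entries read in every tissue. Higher or lower against the other tissues refers to this difference of changes and not to levels. With all 24 arrays in 1 fit, the change within WAT itself was called higher for 3263 and lower for 3127 of 30063 entries. The 6 WAT arrays alone gave 605 and 174, so counts against the other tissues and counts within WAT are not at a like threshold. Of the 22 lipid-associated macrophage genes 7 were called higher and none lower, 5 to 10 with single WAT arrays left out. Atp6v0d2 exceeded the other tissues by 5.49 (adjusted p = 9.92e-05, limma): it changed by 6.06 in WAT, 2.29 in liver, -0.10 in lung and -0.47 in kidney. Spp1 exceeded them by 5.24, Nceh1 by 4.22 and Lipa by 2.97. For Trem2 the difference was 0.47 (adjusted p = 0.677, limma) and for Gpnmb 0.97 (adjusted p = 0.553, limma), and Gpnmb changed by 8.46 in kidney and 5.43 in liver.

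The promoters of these genes were searched for the letters GAGGAAGT, a core bound by PU.1, the myeloid and B cell factor encoded by Spi1, on both strands of the 250 bases before each start site (RefSeq, GRCm38.p6). They stood in 22 of 260 promoter-matched genes called higher (8.46%), 0 of 76 called lower and 391 of all 13591 tested (2.88%). The letters TGTGGTTT, a RUNX core, stood in 4.62%, 0 of 76 and 1.41%, and GGACTTTC, an NF-kB core, in 1.92%, 0 of 76 and 1.05%. None of the 3 letter strings contains another. Among 17 lipid-associated macrophage genes with a promoter the PU.1 letters stood in 3, which are Mmp12, Nceh1 and Spp1, and among 21 adipocyte genes in 0. They stood in 0 of 23 B cell and plasma cell genes, 0 of 10 mast cell genes and 1 of 19 macrophage genes, but in 5 of 18 neutrophil genes, of which none was called. A match is a description of the letters and not a binding site. The promoters of these 3 genes and of Fcgr4, an activating Fc receptor, are shown 5' to 3' along the gene's strand, ending at the base before the start site, with the letters (or their reverse complement ACTTCCTC) in capitals. They lie at chr5:104434861-104435110 on the plus strand for Spp1, chr9:7344147-7344396 on the plus strand for Mmp12, chr3:27182754-27183003 on the plus strand for Nceh1 and chr1:171018676-171018925 on the plus strand for Fcgr4. The first capital stands 113, 88, 73 and 24 bases before the start, in the same order.
Spp1: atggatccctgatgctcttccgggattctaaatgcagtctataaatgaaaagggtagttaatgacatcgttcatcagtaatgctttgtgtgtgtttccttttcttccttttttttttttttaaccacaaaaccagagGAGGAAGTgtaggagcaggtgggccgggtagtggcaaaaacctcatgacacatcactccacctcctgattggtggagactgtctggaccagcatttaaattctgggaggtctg
Mmp12: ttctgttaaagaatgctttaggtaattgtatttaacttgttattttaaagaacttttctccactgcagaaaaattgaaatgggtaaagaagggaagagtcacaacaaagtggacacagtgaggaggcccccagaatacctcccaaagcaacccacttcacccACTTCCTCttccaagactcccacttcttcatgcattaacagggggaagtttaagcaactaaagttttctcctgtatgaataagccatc
Nceh1: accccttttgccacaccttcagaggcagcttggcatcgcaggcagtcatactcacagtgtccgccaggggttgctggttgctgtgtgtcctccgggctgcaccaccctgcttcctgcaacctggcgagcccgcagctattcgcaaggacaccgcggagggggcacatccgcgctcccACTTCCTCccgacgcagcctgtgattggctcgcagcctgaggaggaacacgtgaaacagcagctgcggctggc
Fcgr4: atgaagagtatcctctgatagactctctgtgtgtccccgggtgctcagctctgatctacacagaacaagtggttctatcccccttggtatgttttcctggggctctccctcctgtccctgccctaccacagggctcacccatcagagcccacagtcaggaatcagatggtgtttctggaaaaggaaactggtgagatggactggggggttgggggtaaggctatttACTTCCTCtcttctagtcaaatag

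Macrophage genes in general rose less evenly. Of 26 tested, 6 were called higher and none lower with a median change of 1.66. Without young replicate 1 the count was 2 and the median 1.14, and it was 0 without young replicate 3, aged replicate 1 or aged replicate 3. On young replicate 1, 24 of the 26 were lowest among the young arrays. In 7 of the 26 the change was negative, down to -1.01. Against the other tissues 1 of 24 was called higher and 3 lower, 0 to 3 and 3 to 5 with single WAT arrays left out. The list's median was 2.06 in liver, 0.36 in lung and 3.57 in kidney. Cd68, an endosomal glycoprotein, read 1.99, 3.62 and 3.27 against 7.34, 6.11 and 6.59, a change of 3.72 (SE 0.51, adjusted p = 0.0258, limma). Ms4a7 rose by 3.76, Adgre1, a macrophage surface receptor, by 3.18, Fcgr1, a high-affinity Fc receptor, by 3.34, Aif1 by 1.76 and Vsig4 by 5.76. Adgre1, Fcgr1, Aif1 and Vsig4 were not called without young replicate 1. The first 3 were called in none of the 6 fits that left out 1 array, and Vsig4 in 1. The complement starters C1qa and C1qb, made by macrophages, changed by 1.98 and 2.23 and missed the threshold (adjusted p = 0.137 and 0.104, limma), and of 23 complement genes only C3ar1, the receptor of C3a, was called, at 3.12, and it was called in none of the 6 fits that left out 1 array, with the lowest adjusted p at 0.0614 (limma). Genes of Fc receptors and immune signalling gave a broad shift: 35 of 37 had every aged array above every young array, with a median of 2.15, 1.65 without young replicate 1, whereas 6 were called, 4 without it and 0 without young replicate 3 or aged replicate 3. The 6 were Lcp1, an actin bundler of leukocytes, at 2.47, Fcgr4 at 4.61, the phosphatase Ptpn6 at 1.83, the kinase Syk at 1.87, the integrin Itgal at 1.39 and Plek at 3.28. With 1 array left out, Syk, Itgal and Plek were called in none of the 6 fits, Fcgr4 and Ptpn6 in 1 and Lcp1 in 3.

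Receptors for microbial products went partly the same way. Of 26 Toll-like receptor and inflammasome genes 6 were called higher and 1 lower, 3 and 0 without young replicate 1 and 0 higher without aged replicate 3. Tlr13, which senses bacterial RNA, read -0.36, 0.57 and 0.59 against 4.79, 3.57 and 4.32, a change of 3.96 (SE 0.41, adjusted p = 0.0108, limma). Il1rn, the antagonist of interleukin-1, rose by 4.37, Tlr1 by 2.98, Tlr6 by 2.33, Tlr8 by 3.17 and Nlrc4, an inflammasome sensor, by 2.81. Tlr9, the receptor of CpG DNA, fell by 1.03 (adjusted p = 0.0347, limma), from 2.87, 2.91 and 2.86 to 1.90, 1.97 and 1.69. Tlr9, Tlr8 and Nlrc4 were each called in none of the 6 fits that left out 1 array.

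Many T cell genes rose. Of 23 tested, 11 were called higher and none lower, the median change was 2.40, and without young replicate 1 these were 10 and 2.43. With another array left out the count was 4 to 6. Cd3g, a chain of the T cell receptor complex, read -3.79, -2.81 and -2.76 against 0.12, 0.40 and 0.63, a change of 3.50 (SE 0.33, adjusted p = 0.00795, limma). Its partner Cd3d read -1.98, -1.52 and -1.30 against 1.11, 1.41 and 1.94, and Cd28, the main costimulator, -2.75, -2.87 and -2.98 against -0.69, -0.16 and 0.04. These 3 genes were called with any single array left out. Cd6 rose by 3.29, Lat by 3.10, Zap70 by 2.81 and Lck by 2.57, the last 3 parts of receptor signalling, Cd8b1 by 2.55, Bcl11b by 2.40, Cd5 by 2.19 and Cd3e by 1.59. Against the other tissues 9 of 23 T cell genes were called higher and 1 lower, 5 to 9 higher with single WAT arrays left out, Cd3d by 1.18 (adjusted p = 0.00492, limma).

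Among cytotoxic and exhausted lymphocyte genes 8 of 25 were called higher and none lower, 7 without young replicate 1 and 2 to 4 without another array. Gzmk, a granzyme, was not well above background on any young array and read -3.46, -1.38 and -0.76 at 90 weeks, at least 13.6-fold higher. The inhibitory receptors Havcr2 and Pdcd1 rose by 3.71 and 4.44, and Tigit, dim on all young arrays, was at least 3.3-fold higher. Cxcr6 and Cxcr3, chemokine receptors of effector T cells, rose by 2.44 and 2.31, Slamf7 by 3.26 and Tbx21, the T-bet factor, by 1.74. The granzymes of classical killer cells were not called: Gzma read -0.91, -0.17 and 1.12 against -2.04, -1.42 and -0.12 (adjusted p = 0.383, limma) and Gzmb changed by 2.15 (adjusted p = 0.17, limma). Of 19 genes of fat-resident regulatory T cells and type 2 immunity only Il10, the anti-inflammatory cytokine, was called. It rose by 3.88, from -6.68, -6.07 and -5.35, where it was well above background on 1 young array. Foxp3, the factor of regulatory T cells, changed by 0.77 (adjusted p = 0.159, limma).

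B cell and plasma cell genes gave the largest count of any list. Of 28 tested, 12 were called higher and none lower, with a median change of 1.98, and without young replicate 1 these were 10 and 2.09. The count was 2 without aged replicate 1 and 3 to 9 without another array. Jchain, which joins secreted antibodies, read -2.36, -0.97 and 0.80 against 5.02, 5.59 and 5.54, a change of 6.23 (SE 0.77, adjusted p = 0.0189, limma). Mzb1, a chaperone of antibody secretion, rose by 5.38 and Pou2af1, a B cell coactivator, by 4.53, and both were called with any single array left out. The B cell surface genes Ms4a1 (CD20), Cd79b and Cd79a rose by 3.61, 3.48 and 2.70, Ccr6 by 3.70, Tnfrsf13c, a receptor for BAFF, by 3.49, Spib by 3.15, Fcrla by 2.27 and Tnfrsf17 by 1.87. In the comparison with the other tissues 1 of 24 was called higher, 1 also without young replicate 1, and Jchain, at 0.70 (adjusted p = 0.679, limma), changed by 7.95 in kidney. The 8 markers of lymph node stroma and follicles had a summed signal of 5.35 to 6.30 at 10 weeks and 5.45 to 6.19 at 90 weeks. Of these 8, Cxcl13, the B cell attractant, rose by 5.32 (adjusted p = 0.0397, limma; 0.0596 without young replicate 1), whereas Ccl21a read 3.70, 4.05 and 4.73 against 3.62, 5.07 and 2.73. Cxcl13 was called in none of the 6 fits that left out 1 array. The part of lymph node tissue in the lymphocyte counts was not tested.

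Mast cell genes rose in smaller number. Of 11 tested 4 were called higher and none lower, with a median of 2.50. On young replicate 1, 7 of the 11 were lowest among the young arrays, as were 9416 of all 17213 tested genes with a symbol. Without that array 6 were called. The count was 1 without aged replicate 2 and 0 without any of the other 4 arrays. Fcer1a, a chain of the IgE receptor, read -4.03, -2.63 and -2.79 against 0.32, -0.21 and 1.09, a change of 3.55 (SE 0.49, adjusted p = 0.0258, limma). The mast cell proteases Cma1, Mcpt4 and Tpsb2 rose by 3.42, 2.96 and 2.50. Cpa3 changed by 3.11 and became called without young replicate 1 (adjusted p = 0.0592 and 0.0258, limma). Of the 7 mast cell genes read in every tissue 4 had a change called higher in WAT than in the other tissues. The count was 4 also with any single WAT array left out. Cma1 exceeded the other tissues by 4.03, Fcer1a by 3.44 and Tpsb2 by 2.98. Of 19 neutrophil genes none was called (2 higher and 1 lower at an unadjusted p under 0.05). S100a9, abundant in neutrophils, read -2.62, 0.09 and 5.79 at 10 weeks and 1.81, 5.85 and 8.87 at 90 weeks, so the 2 ages overlapped.

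**Figure D3:**
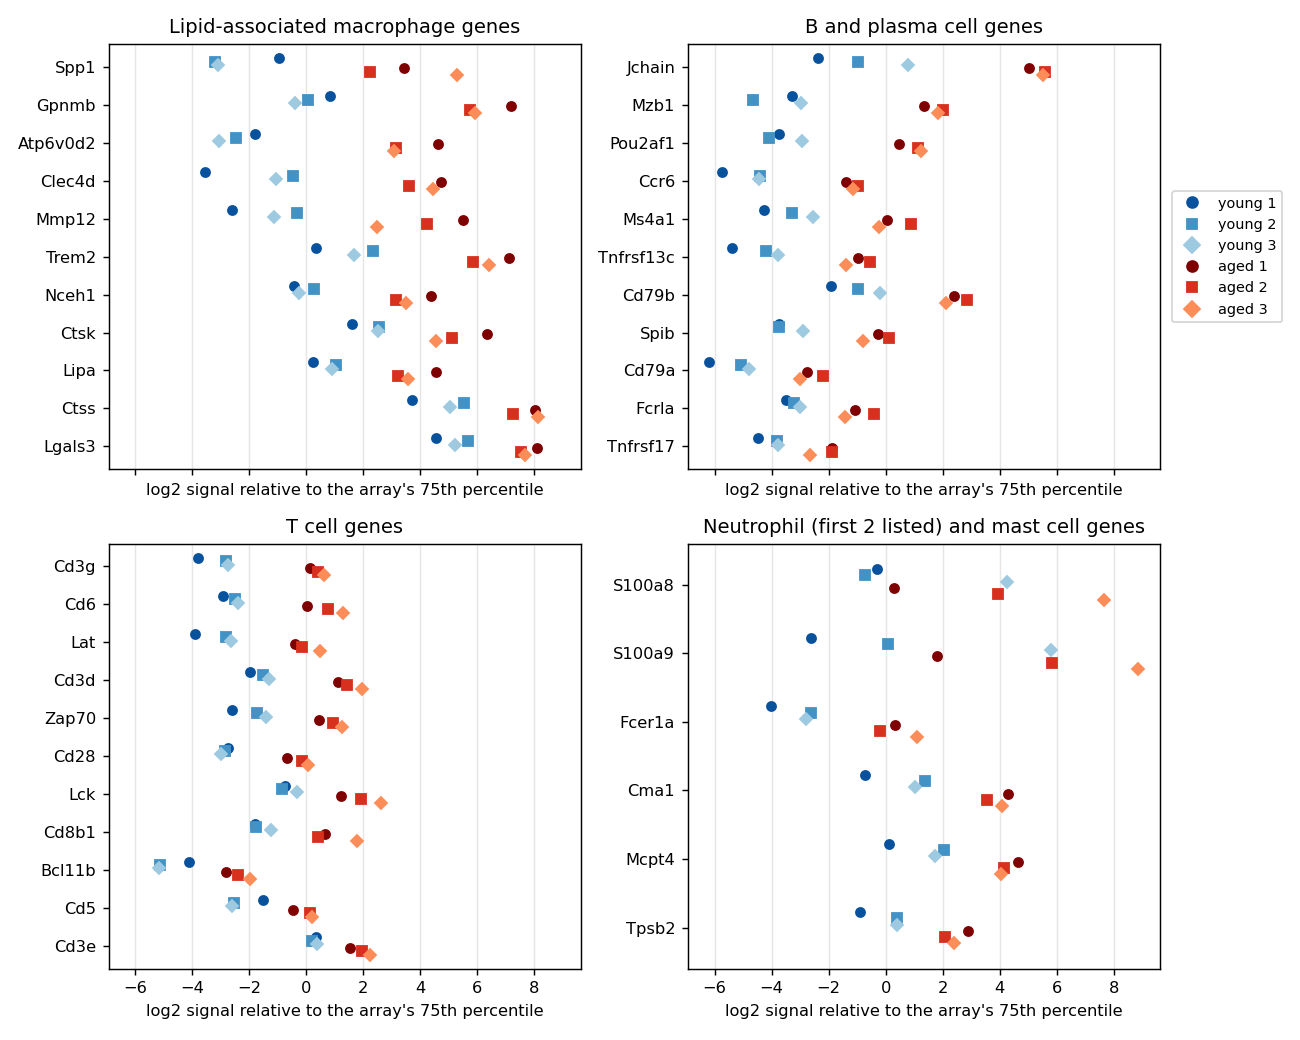
Levels on each of the 6 arrays for members called higher of 4 immune cell lists, and for the first 2 neutrophil genes (x axis, log2 of the signal over the 75th percentile of its array). In the macrophage, B cell, T cell and mast cell genes shown every aged array lies above every young array. These rows are called members, so that separation goes with the selection. Over all tested members of the lists it held in 20 of 22, 22 of 28, 17 of 23 and 9 of 11, in the same order, and in 13.7% of all entries. S100a8 and S100a9 spread widely within both ages, up to 7.67 and 8.87 on aged replicate 3.

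Antigen presentation genes had few members called. Of 19 MHC class II and dendritic cell genes 3 were called higher and none lower, 1 without young replicate 1, and the median was 0.23, -0.09 without that array. H2-Aa and H2-Ab1, chains of the classical class II molecule, changed by 0.21 and 0.22, with H2-Aa at 2.53, 4.22 and 3.92 against 3.84, 3.80 and 3.67. Both differences turned negative without young replicate 1. The called members were H2-Eb2 at 2.37 and H2-Oa at 1.95, minor class II chains, and Irf8, a factor of dendritic cells and macrophages, at 2.03. In liver and kidney the class II list had median changes of 1.65 and 2.37. The change of 4 of 16 members was called lower in WAT than in the other tissues, 11 without young replicate 1 and 1 to 3 without another array. None of 16 MHC class I genes and none of 38 interferon-stimulated genes was called, although 4 and 8 were higher at an unadjusted p under 0.05. In 9 of the 16 class I genes every aged array was above every young array, and their median was 0.59, 0.35 without young replicate 1. All 16 were highest on aged replicate 3 among the aged arrays. Of the interferon-stimulated genes Oasl1 was nearest, at 3.08 (adjusted p = 0.0609, limma).

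Chemokines of the secretory programme that marks senescent and inflamed tissue (the senescence-associated secretory phenotype, SASP) rose with the macrophage genes. Of 32 SASP factors 6 were called higher and none lower, 3 to 4 with any 1 array left out, with a median of 1.44 (1.06 without young replicate 1). Ccl4 read -4.10, -3.20 and -3.41 against 1.08, 0.50 and 2.33, a change of 4.87 (SE 0.51, adjusted p = 0.0111, limma), and Ccl8 read 1.45, 2.07 and 2.15 against 5.06, 5.85 and 6.53. The rest were Ccl3, Cxcl13, Spp1 and Mmp12. The matrix protease Mmp3 changed by 4.02 and missed the threshold (adjusted p = 0.0616, limma). Among 29 other chemokines and receptors Ccrl2 rose by 2.63, Ccl12 by 1.83 and Ccr6 as above, and Ackr4, a scavenger of CCL19 and CCL21, and Ccl27a fell by 3.72 and 0.96, where the counts of 3 and 2 were 3 and 1 without young replicate 1 and 0 and 0 without aged replicate 1 or aged replicate 3.

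Of 25 cell cycle inhibitors and p53 targets 2 were called higher, with any array left out 1 to 2. Cdkn2a, which encodes p16Ink4a and p19Arf, read -4.08, -4.08 and -3.86 against 1.19, -0.08 and 0.28. Gdf15, a stress-induced cytokine, read 0.47, -0.76 and -1.99 against 4.76, 3.58 and 3.36, a change of 4.66 (SE 0.69, adjusted p = 0.0309, limma). Cdkn1a (p21) changed by 0.18 (adjusted p = 0.815, limma), and that difference turned negative without aged replicate 3. Of 41 mitosis and DNA replication genes the helicase subunit Mcm6 and the repair gene Brca1 were called, at 1.18 and 2.38, neither without young replicate 1, while 23 were higher and none lower at an unadjusted p under 0.05. Mcm6 was called in none of the 6 fits that left out 1 array, and Brca1 in 1. Foxm1 changed by 0.59 in WAT (adjusted p = 0.362, limma) and differed from the other tissues by -1.57 (adjusted p = 0.0167, limma). Against the other tissues 3 of 39 members of its list were called higher and 4 lower, 1 to 3 and 0 to 5 with single WAT arrays left out. No member, and so not Foxm1, was called lower without young replicate 3.

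Lysosome genes had the most members whose change was called higher than in the other tissues. That comparison calls more entries than the one within WAT. Within WAT 1 of 26, Tcirg1, a proton pump subunit, was called, at 2.67, as it was in 2 of the 6 fits that left out 1 array. The count was 1 without young replicate 1, 2 without aged replicate 2 and 0 without any 1 of the other 4 arrays, while 18 of 26 had every aged array above every young array, with a median of 0.80 (0.76 without young replicate 1). Against the other tissues 18 of 26 were called higher and 1 lower, 13 to 20 higher with any 1 WAT array left out. The medians were 0.25 in liver, 0.07 in lung and -0.34 in kidney. Gusb, beta-glucuronidase, read 2.71, 2.96 and 2.84 against 5.59, 4.17 and 4.72 and exceeded the other tissues by 1.53 (adjusted p = 0.00356, limma). Atp6v1b2, of the proton pump, exceeded them by 1.74 and Tcirg1 by 1.82. Npc1, a cholesterol exporter, changed by 1.53, the cathepsin Ctsl by 1.25 and prosaposin, Psap, by 1.51, all short of the threshold within WAT (adjusted p = 0.0702 to 0.0786, limma). Aged replicate 1 was highest of the aged arrays in 23 of the 26 lysosome genes and in 18 of the 22 lipid-associated macrophage genes. The share of all genes that were highest on that array was not counted. Most of these enzymes occur in every cell, and the part of macrophages in their rise was not tested.

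Adipocyte identity genes were not called in either direction within WAT. Against the other tissues 1 of the 21 read in every tissue was called higher and 3 lower, 0 to 1 and 3 to 4 with single WAT arrays left out. Of 26 adipocyte and adipokine genes 6 were lower and none higher at an unadjusted p under 0.05, with a median of -0.44 (-0.68 without young replicate 1, where 23 of 26 were lowest among the young arrays). Adipoq, adiponectin, read 7.36, 8.35 and 8.33 against 7.42, 7.91 and 7.97 (change -0.25, SE 0.33, adjusted p = 0.721, limma). The fatty acid carrier Fabp4 stayed between 8.72 and 9.01 on all 6 arrays, and Lep, leptin, changed by -0.39 (adjusted p = 0.662, limma). Retn, resistin, read 7.99, 8.33 and 8.30 against 5.72, 6.84 and 8.23, with aged replicate 3 within the young range. Rbp4, a retinol carrier secreted by fat, was nearest to the threshold among them, at 6.94, 7.18 and 7.22 against 5.09, 6.09 and 5.75 (adjusted p = 0.0607, limma).

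Lipogenesis genes had the lowest median of the 38 gene lists, -1.12, and -1.15 without young replicate 1. Of 25 tested 2 were called lower and none higher, also 2 without young replicate 1, with 12 lower at an unadjusted p under 0.05. Scd2, a stearoyl-CoA desaturase, fell from 5.94, 4.07 and 4.70 to 1.12, 1.48 and 1.85 (change -3.42, SE 0.50, adjusted p = 0.0292, limma), and its difference from the other tissues was -3.53. Mogat1, an acyltransferase of triglyceride synthesis, fell from 2.31, 3.24 and 2.96 to 0.15, 1.04 and 0.74. Scd2 was called in 2 and Mogat1 in 1 of the 6 fits that left out 1 array, and neither without young replicate 3, aged replicate 1 or aged replicate 2. Fasn, fatty acid synthase, read 8.89, 8.65 and 8.66 at 10 weeks and 4.37, 5.87 and 8.52 at 90 weeks, so aged replicate 3 stood near the young arrays. The carboxylase Acaca read 6.30, 6.23 and 5.98 against 3.42, 4.17 and 6.28, with aged replicate 3 again within the young range. Elovl6 and Acly on aged replicate 3 were likewise within the young range, and neither Fasn (adjusted p = 0.251, limma) nor Acaca (0.3) was called. Against the other tissues 4 of 25 were called lower, 2 to 9 with single WAT arrays left out, 9 without aged replicate 3. Of 21 cholesterol synthesis genes 2 were called lower and none higher, and none was called with any 1 of the 6 arrays left out. Idi1, the isomerase of isoprenoid units, was one of them, at -0.98 (adjusted p = 0.044, limma).

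Fatty acid oxidation genes, which burn lipid in mitochondria, had none of 21 called in fat, 1 higher and none lower at an unadjusted p under 0.05, and a median of -0.03. In liver and kidney the median changes were -0.77 and -0.89. The change of 10 of the 21 was called higher in WAT than in the other tissues, 5 without young replicate 1 and 6 to 11 without another array. Hadhb, of the mitochondrial trifunctional protein, read 5.12, 5.58 and 5.40 against 5.64, 5.54 and 5.78 and exceeded the others by 0.98 (adjusted p = 0.00725, limma). None of 34 oxidative phosphorylation genes and none of 24 glycolysis genes was called, where the counts at an unadjusted p under 0.05 were 0 higher and 3 lower, and 1 higher and 5 lower. Pgam1, a phosphoglycerate mutase, read 5.36, 5.46 and 5.34 against 5.25, 5.01 and 5.31.

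Of 18 thermogenic fat genes Ucp1 alone was called. Without young replicate 1 the counts were 1 higher and 1 lower. Cidea, a lipid droplet protein of brown and beige adipocytes, read 0.49, 0.26 and 0.50 against 1.86, 2.11 and 3.54 and missed the threshold (adjusted p = 0.0774, limma). Every aged array lay above every young array in 4 of the 18, Ucp1 and Cidea among them, and below in 1. Over all entries those shares were 13.7% and 15%. The step that Ucp1 made on all aged arrays was not shared by Elovl3, Dio2 or Cox8b. Elovl3 read -5.08, -5.65 and -0.92 at 90 weeks and Dio2 -4.63, -4.38 and -1.68, both raised on aged replicate 3 alone. Cox8b was at 2.98, 2.84 and 4.47 against 2.90, 2.53 and 2.65 at 10 weeks. The summed signal of 7 brown adipocyte markers was 3.36 to 3.80 at 10 weeks and 3.99, 4.06 and 5.31 at 90 weeks.

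**Figure D4:**
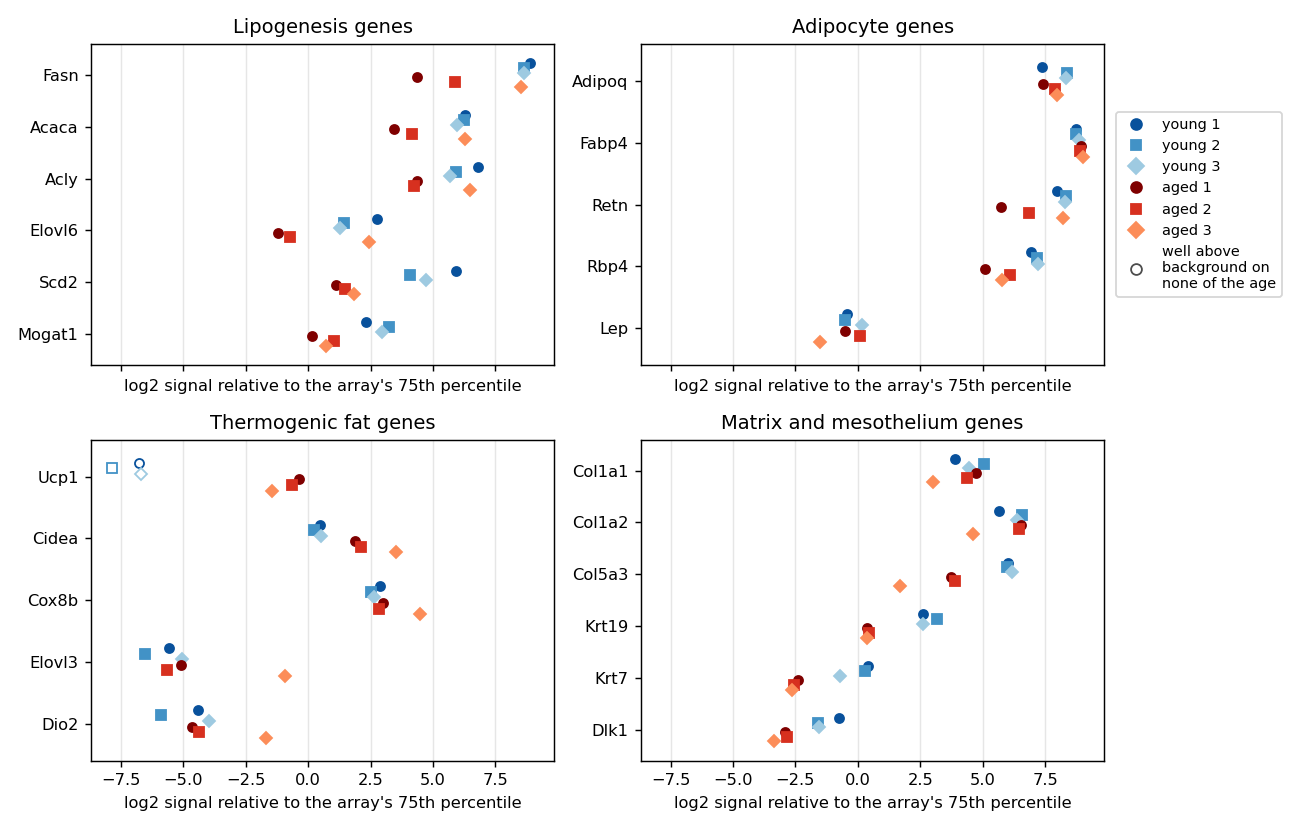
Levels on each of the 6 arrays for genes of lipogenesis, adipocytes, thermogenic fat, and matrix and mesothelium (x axis, log2 of the signal over the 75th percentile of its array; open symbols, well above background on none of the 3 arrays of that age). Fasn, Acaca and Acly on aged replicate 3 (light orange) lie at the young level, and Elovl3 and Dio2 are raised on that array alone, whereas Ucp1 and Krt19 separate the ages on all arrays.

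Collagen and matrix genes were not called within WAT, where 1 of 34 was higher and 8 lower at an unadjusted p under 0.05 and the median was -0.43 (-0.72 without young replicate 1). Young replicate 1 was lowest of the young arrays in 32 of the 34 and aged replicate 3 lowest of the aged in 30. Col1a1 read 3.87, 5.06 and 4.45 against 4.72, 4.39 and 3.02, and its difference and that of Col1a2 turned positive without aged replicate 3. Against the other tissues 13 of 32 were called lower and none higher, 9 to 18 lower with single WAT arrays left out. The list's median was 0.68 in liver, -0.79 in lung and 1.74 in kidney. Col4a1, a basement membrane collagen, read 5.14, 5.62 and 5.82 against 4.56, 4.46 and 3.14 and differed from the other tissues by -1.64 (adjusted p = 0.00599, limma). Among matrix proteases Mmp15 fell by 1.93 and Mmp12 rose as above, neither called without young replicate 1.

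Few single genes of the stroma around the adipocytes were called within WAT. Of 33 progenitor and fibroblast genes only Dlk1, the imprinted preadipocyte factor Pref-1, was called, from -0.77, -1.61 and -1.54 to -2.92, -2.82 and -3.37 (change -1.73, SE 0.29, adjusted p = 0.044, limma). It was the 1 member called of 15 imprinted growth genes too, and was not called with any of the 6 arrays left out. Vcam1, the adhesion molecule that binds leukocytes, was the 1 called of 24 endothelial genes, and was called in 3 of the 6 fits that left out 1 array. It read 0.51, 1.56 and 1.96 against 4.74, 4.05 and 5.08, while the endothelial junction genes Pecam1 and Cdh5 changed by -0.61 and -0.83 (adjusted p = 0.444 and 0.282, limma). Against the other tissues 8 of 27 progenitor and fibroblast genes were called lower and none higher, 12 without young replicate 1 and 5 to 9 without another array. Of 24 endothelial genes 6 were called lower and none higher, 15 without young replicate 1, 14 without aged replicate 2 and 3 to 6 without another array. Of 12 mesothelium genes the keratins Krt19 and Krt7 fell by 2.42 and 2.50 (adjusted p = 0.00669 and 0.0224, limma), and both are also expressed by other epithelia. Krt19 was called with any single array left out and Krt7 in 2 of those 6 fits. Krt19 read 2.62, 3.17 and 2.61 against 0.35, 0.44 and 0.35, with a gap between the ages many times the spread within them. Of the 12, 3 were called lower without young replicate 1. The median level of the list was -0.60, 2.63 and 1.80 at 10 weeks and 0.38, 0.40 and 0.27 at 90 weeks, so young replicate 1 was lowest and the other young arrays highest. The summed signal, 6.92, 6.58 and 5.65 against 4.57, 4.30 and 4.07, did not show this, since on young replicate 1 it was carried by the keratins Krt18 (6.30) and Krt8 (4.96), while the mesothelial surface genes Msln (0.09) and Upk3b (-1.84) read below every aged array there. Krt8 and Krt18 occur in many epithelia, and the part of epididymal epithelium in their level on that array was not tested.

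The genes that fell most were of mixed kinds. Asb12, of a family of ubiquitin ligase adaptors, was not well above background at 90 weeks and at least 10.4-fold lower, and the anoctamin Ano9 at least 11.8-fold. Lrmda fell from 2.64, 3.15 and 2.96 to -0.76, -0.53 and -0.76 (change -3.60, SE 0.20, adjusted p = 0.00286, limma). Its change was -0.77 in liver, -2.71 in lung and -2.91 in kidney. Tmem254a, which has near-identical copies and so an uncertain share of its signal, fell by 3.40, with changes of -2.81 to -2.34 in the other tissues. Adamts19 was at least 2.27-fold and Fbxo15 at least 2.07-fold lower. Of 4 tested genes that differ between C57BL/6 substrains, Entpd4 was called lower, at 4.13, 3.65 and 3.45 against 2.58, 2.47 and 2.35. Entpd4 was called in none of the 6 fits that left out 1 array. A difference in genetic background between the ages was not tested.

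Another 6 of the 15 leading decreases were in genes of the liver. Ttr, a thyroxine carrier, read -2.88, -4.84 and -1.46 at 10 weeks and was not well above background at 90 weeks, at least 5.99-fold lower (adjusted p = 0.0464, limma; 0.0946 without young replicate 1). The fibrinogen chains Fgg and Fgb were at least 6.54-fold and 6.46-fold lower, prothrombin, F2, at least 4.52-fold, the carboxylesterase Ces3a at least 3.99-fold and the plasma protease inhibitor Pzp at least 8.63-fold. Without young replicate 1 only F2 was called (adjusted p = 0.0413, limma). In young liver these 6 genes read 8.91 to 9.66 and in young WAT -3.64 to -2.53 in the mean. Of the 103 genes called lower, 11 (10.7%) were over 32-fold brighter in young liver than in young WAT, against 2.0% of all tested genes with a symbol. The summed signal of the 7 hepatocyte markers was 7.26 to 8.45 at 10 weeks and 4.81, 6.39 and 8.62 at 90 weeks, a sum led by Cyp2e1, which fat also expresses. Alb read 1.57, 2.71 and 3.09 against -1.79, 0.26 and -1.66. The part of liver RNA in these decreases was not tested.

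Of the remaining lists, circadian clock, heat shock, insulin and IGF1 axis, nuclear receptor and sirtuin genes had no member called in either direction. Their counts at an unadjusted p under 0.05 were at most 3 in each direction of 16 to 26 tested. Of 27 NRF2 targets and metallothioneins Hmox1, which degrades heme, was called, at 1.97, 3.51 and 2.99 against 6.19, 5.10 and 6.04 (change 2.96, adjusted p = 0.0399, limma; 0.053 without young replicate 1). Hmox1 was called in none of the 6 fits that left out 1 array. Of 13 Ms4a genes, a family of membrane proteins of leukocytes, Ms4a1 and Ms4a7 were called. The count was 3 without young replicate 1, 1 without young replicate 2, young replicate 3 or aged replicate 2, and 0 without aged replicate 1 or aged replicate 3. Of 112 called genes followed singly, 27 were called in each of the 6 fits that left out 1 array, among them Csprs, Rgs1, Ucp1, Gpnmb, Cdkn2a, Ccl8, Nceh1, Cd3g, Mzb1 and Krt19.

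**Figure D5:**
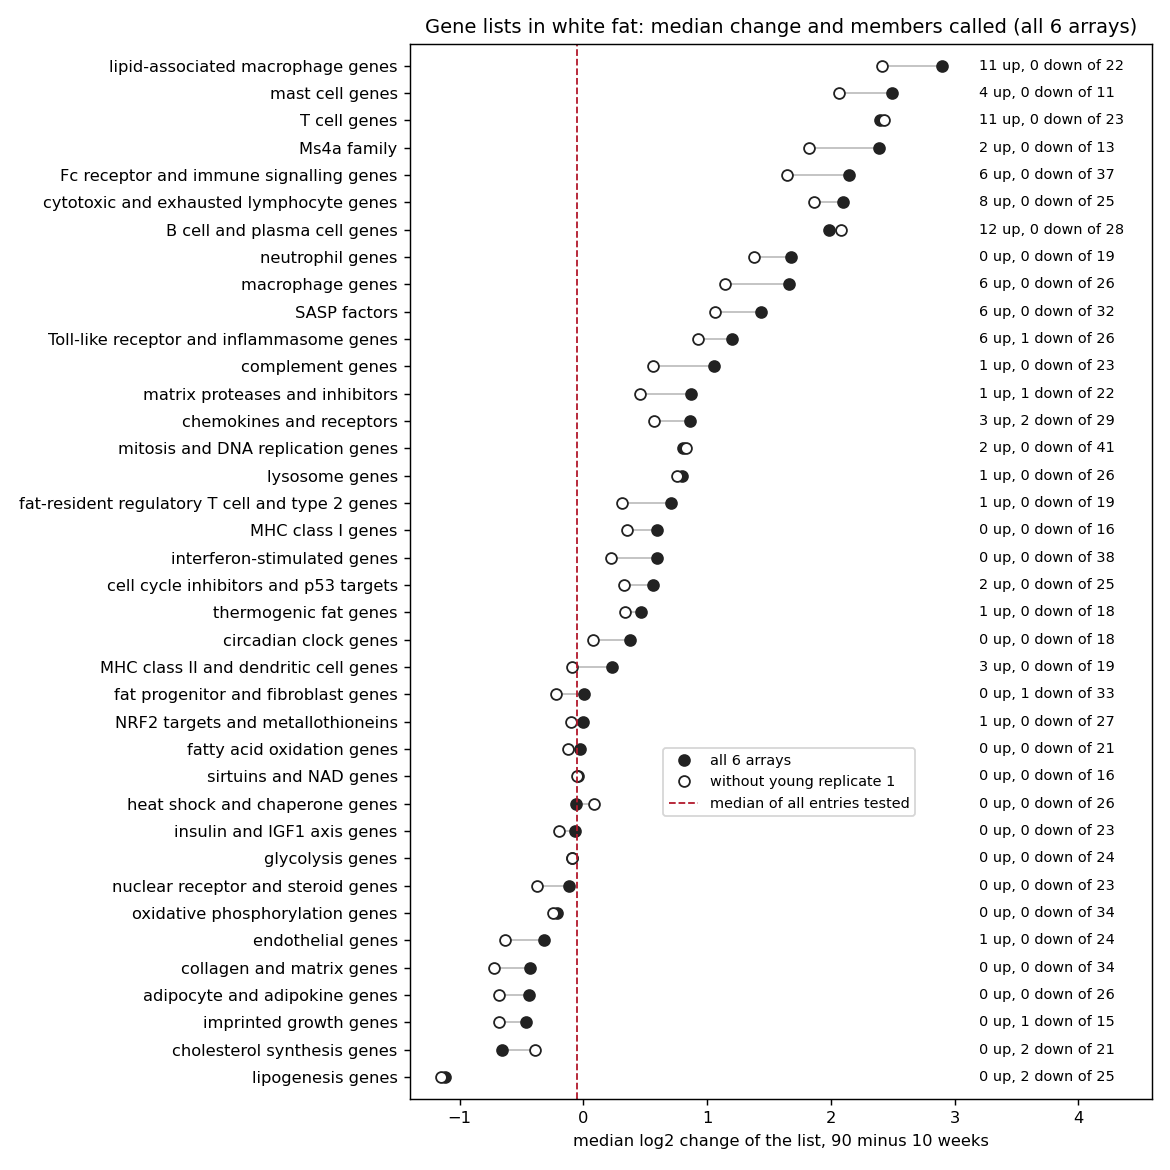
Median log2 change of each of 38 gene lists (x axis, 90 minus 10 weeks) with all 6 arrays (filled) and without young replicate 1 (open), with the number of members called on the right. Lists of immune cells lie highest, from 2.90 for lipid-associated macrophage genes, and lipogenesis genes lowest at -1.12. The dashed line is the median over all entries, -0.05.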

How the data were processed

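Total RNA of white fat, liver, lung and kidney was hybridised to Agilent 1-colour arrays, 1 array per mouse and tissue. The deposited intensity values were made by the authors with Agilent Feature Extraction 11.0.1.1, per the submitters' processing notes, and are background-subtracted. The paper's methods name a kit for human arrays, whereas the probes are those of a mouse design (mm9). From them, log2 intensity minus the array's 75th percentile over non-control probes was computed, spots flagged as outliers were left out, and spots of 1 probe were averaged. A gene kept its brightest probe, and a probe was tested if it was well above background on 3 of the 6 arrays. Array files carry no read depth, so the number of arrays limits the precision. Names came from RefSeq accessions (GRCm38.p6), which named 32994 of 56605 probes (58.3%). Genomic positions are given for promoters only.

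Ages were compared with limma 3.58.1 in R 4.3.3 on the 6 white fat arrays and, for the difference from the other tissues, on all 24. P-values were adjusted by Benjamini-Hochberg and called under 0.05. A gene not well above background on all arrays of 1 age is given as a bound. The fits were tested on simulated data. Labels do not say more than that samples are separate, so p-values measure the spread between these samples. White fat of both ages lay on 1 slide scanned once. Replicate numbers are shared between ages but belong to different mice, and the deviations of same-numbered arrays correlated at -0.01, -0.07 and 0.18, so no pairing was used. Members and gene lists were chosen with earlier results of these data known. Named were the 15 largest called changes in each direction without overlap, up to 4 called members of each list with the smallest adjusted p, the first 2 genes of each list, Cdkn2a, Cdkn1a, Foxm1, Pgam1, Adipoq, Lep, Ucp1 and Csprs, and members that carry a small count. The other genes named, among them Mpo, Sfrp5, Elovl3, Dio2, Retn, Fcgr4, Gusb, Trem2 and Gzma, were chosen after their values were seen. Nnt, also in the rule, had no named probe here, and a few genes that the rule names are not reported here. The alternatives were other background correction, scaling, filters, probe rules, array weights and the methods' t-test. Further ones were the replicate number as a block, all 24 arrays in 1 fit and each array left out. For the difference from the other tissues that block was the replicate number within an age.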

Additional observations from a re-analysis of the deposited data

Results flagged for a closer look

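For the following genes the age difference in white fat differed from the mean of liver, lung and kidney in an interaction test (limma over all 24 arrays, adjusted p under 0.05). Values are the log2 change in white fat minus that mean. It was positive for Atp6v0d2 (5.49), Spp1 (5.24), Nceh1 (4.22), Cma1 (4.03), Csprs (3.49), Fcer1a (3.44), Gm7609 (3.05), Tpsb2 (2.98), Lipa (2.97), Rgs1 (2.85) and Ccl3 (2.59). Smaller positive differences were those of Tcirg1 (1.82), Atp6v1b2 (1.74), Gusb (1.53) and Hadhb (0.98).

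It was negative for Scd2 (-3.53), Krt19 (-3.44), Fasn (-2.27), Krt7 (-2.08), Col4a1 (-1.64), Foxm1 (-1.57), Lrmda (-1.48) and Tmem254a (-0.89). The fit also gave negative values for the liver-made F2 (-3.98), Fgb (-7.27), Fgg (-6.54), Pzp (-4.03) and Ttr (-5.54). These 5 genes were well above background on all young white fat arrays and on none of the aged ones, so the sizes are not measured differences and have no order. The lung changes that entered them were 5.93 for Fgb and 4.57 for Ttr, and the liver changes 0.06 and -0.75. The value of Gm7609 likewise rests on a dim group, at 10 weeks. Csprs changed by 2.75 in liver, 4.35 in lung and 4.06 in kidney. The difference of Foxm1 was not called without young replicate 3. With 3 arrays per age no array could be tested as an outlier.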

How the results depend on the processing

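With 3 arrays per age, counts of calls moved more with the arrays left out than with the scaling. Of the 605 higher and 174 lower calls, background correction by normexp gave 684 and 217, quantile normalization 559 and 120, and median centring 598 and 169. Scaling on the spike-ins gave 543 and 114, no filter 413 and 76, and a filter on all 6 arrays 301 and 93. All 24 arrays in 1 fit gave 3263 and 3127, array weights 1489 and 1287, and the methods' t-test 1 and 0 after Benjamini-Hochberg (2646 and 2668 before it). Leaving out each array gave 211 to 478 higher and 25 to 124 lower, the fewest higher without aged replicate 3 and the fewest lower without young replicate 3. Calls of the difference from the other tissues ranged over 1304 to 2881 higher and 744 to 1726 lower.

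The replicate number as a block, though it pairs different mice, gave 323 higher and 41 lower. For the difference from the other tissues the block was the replicate number within an age, which gave 2690 higher and 1225 lower. That block joins same-numbered arrays of different tissues at the same age and never joins young with aged mice. The labels do not say whether such arrays came from the same mouse, and the main fit for that difference used no block.

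Small differences changed sign in places, and the cause was not tested. With each array left out in turn, Cdkn1a ranged from -0.15 to 0.48, Lep from -0.75 to 0.037, Col1a1 from -0.76 to 0.092, Col1a2 from -0.67 to 0.29 and Mpo from -1.82 to 3.58, and aged replicate 3 was the array whose absence turned the sign. H2-Aa ranged from -0.30 to 0.54 and H2-Ab1 from -0.23 to 0.51, turned by young replicate 1, and Sfrp5 from -0.67 to 3.97, where its values without aged replicate 1 and without aged replicate 2 were negative. With array weights H2-Aa was -0.13, H2-Ab1 -0.10 and Mpo -2.53. The difference from the other tissues ranged from -0.057 to 1.52 for Jchain, turned by young replicate 1, and from -0.36 to 0.43 for Lep, negative without any 1 of 4 arrays and at -0.0080 under normexp. For Pgam1 it was -0.072 under quantile normalization.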
